A study of Mus musculus with 2 samples.

Results

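Mir33 and the 3 paralogs Mir148a, Mir148b and Mir152 are miRNA genes linked to cholesterol handling, and their levels were read here in mouse adrenal gland. The members were chosen by gene symbol, not by level, as the rows of both count tables whose Ensembl identifier carries one of these names in GENCODE M21. All 4 were found among 2202 miRNA genes. The samples are adrenal gland tissue of the inbred mouse strain C57BL/6J, described in a free-text label as wild type and male although the sex field reads not collected, with age and stage unknown and no treatment given. They form 1 group of 2 microRNA-seq libraries with inserts below 30 nt, biological replicates 1 and 2. The labels give the replicates separate biosample records but 1 donor record. They do not settle whether the replicates are separate animals, so the spread between them may be technical or biological. The design holds no contrast of conditions, and the values below are levels and their spread over 2 libraries.

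A miRNA is cut from a hairpin transcript and guides silencing of messenger RNAs that pair with its seed, the bases 2 to 8 counted from its 5′ end. Mir33 lies within Srebf2, the gene of SREBP-2, a transcription factor that turns on cholesterol synthesis when sterols are low. Its product miR-33 is known to repress Abca1 and Abcg1, transporters that export cholesterol. The family of Mir148a, Mir148b and Mir152 is known to repress Abca1 too. Adrenal cortical cells take cholesterol from lipoproteins through receptors such as SR-BI, store it as esters and turn it into steroid hormones. No messenger RNA was measured, so these targets are background and not results.

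The mature sequences below show what the family shares and where its members part. They are RefSeq sequences on GRCm38.p6, the assembly that mm10 names, with the seed in capitals.
mmu-miR-148a-3p: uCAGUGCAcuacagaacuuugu
mmu-miR-148b-3p: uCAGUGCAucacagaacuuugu
mmu-miR-152-3p: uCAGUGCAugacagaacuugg
mmu-miR-33-5p: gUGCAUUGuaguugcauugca
The 3 family members carry the same 3p seed, CAGUGCA, and no other gene of the RefSeq miRNA table has an arm with it. The seed of miR-33-5p, UGCAUUG, was likewise found on no other of the 1738 mature sequences in that table. Target sites complementary to these seeds read UGCACUG and CAAUGCA.

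The family members differ just behind the seed. Counted from the 5′ end without gaps, miR-148b-3p differs from miR-148a-3p by C9U and U10C, so 20 of 22 bases are identical. miR-152-3p differs from miR-148a-3p by C9U, U10G and U20G over 21 bases, and from miR-148b-3p by C10G and U20G. Each deposited count belongs to a whole hairpin, and reads of its 2 arms were not kept apart, which is why the hairpins are given here. In them both annotated arms are in capitals.
Mir148a, chr6:51269812-51269910, minus strand: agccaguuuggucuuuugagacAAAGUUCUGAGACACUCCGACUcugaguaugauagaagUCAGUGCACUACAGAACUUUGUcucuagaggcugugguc
Mir148b, chr15:103285125-103285221, plus strand: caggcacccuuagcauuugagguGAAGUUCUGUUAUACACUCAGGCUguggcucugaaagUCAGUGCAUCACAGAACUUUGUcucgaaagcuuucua
Mir152, chr11:96850393-96850465, plus strand: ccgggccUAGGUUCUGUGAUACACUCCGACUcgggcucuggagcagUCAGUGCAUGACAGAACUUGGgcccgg
Mir33, chr15:82198122-82198190, plus strand: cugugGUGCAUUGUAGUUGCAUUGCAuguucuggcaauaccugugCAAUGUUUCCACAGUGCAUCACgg
The opposite, 5p arms of Mir148a and Mir148b share a seed of their own, AAGUUCU, while the 5p arm of Mir152 has AGGUUCU. The Mir152 hairpin is the richest in G and C at 61.6%, against 45.5% for Mir148a, 45.4% for Mir148b and 47.8% for Mir33. The quartiles over 267 detected hairpins were 43.2% and 56.1%.

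A read that fits several loci entered no gene, so copies could hide a level. None of the 4 hairpins shares a stretch of 20 nt with a miRNA gene at another locus in the tables. The longest run shared with any other was 15 nt, between Mir148a and Mir148b, then 13 nt for Mir152 and 12 nt for Mir33. Copies outside the annotated miRNA genes were not searched.

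On mm10, Mir33 (ENSMUSG00000065465.1) lies on chromosome 15 in intron 16 of 18 of Srebf2, 335 bases behind the upstream exon in an intron of 1848 bases. Mir148b (ENSMUSG00000065560.1), also on chromosome 15, lies in intron 1 of Copz1, 12213 bases from the start of the host transcript. Mir152 (ENSMUSG00000065515.1) lies on chromosome 11 in intron 1 of Copz2, 517 bases from the host start. Copz1 and Copz2 are paralogs that encode zeta subunits of the COPI vesicle coat. The hairpins of Mir148b and Mir152 thus occupy the same intron number of paralogous hosts. Mir148a (ENSMUSG00000065505.1) on chromosome 6 has no host gene, and the nearest protein-coding gene, Nfe2l3, is 162760 bases away. In every annotated host transcript that spans a hairpin (3 of Srebf2, 4 of Copz1 and 3 of Copz2) the hairpin was intronic, and no gene is annotated on the opposite strand of any member. No member has another miRNA gene within 10 kb, which held for 111 of the 267 detected miRNA genes (41.6%).

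**Figure D1:**
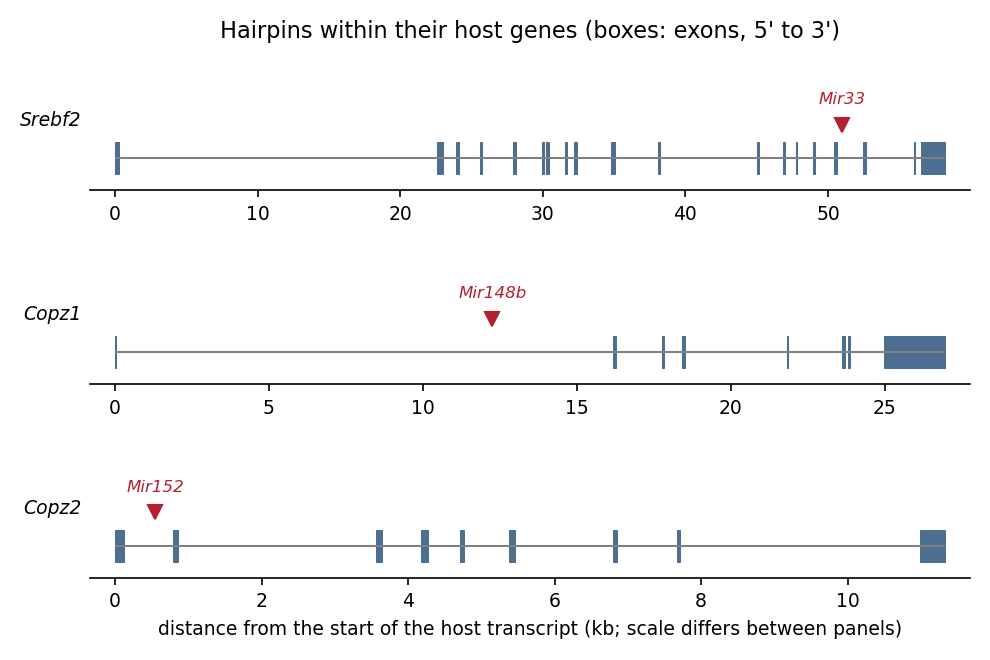
Exon maps of the longest coding host transcript that spans each hairpin, with distance from the transcript start in kb on the x axis (its scale differs between panels), exons as boxes and the hairpin as a red triangle. Mir148b and Mir152 sit in intron 1 of Copz1 and Copz2, and Mir33 sits in intron 16 of Srebf2; Mir148a has no host and is not drawn.

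Sense-strand counts were scaled to a total of 1000000 counts over all miRNA genes (CPM). The totals before scaling were 10263894 counts in replicate 1 and 3525666 in replicate 2. Replicate 2 was also the library with more unmapped reads, 41.4% against 13.8%. Detection was set at 10 CPM in both replicates, which 267 miRNA genes reached, all 4 members among them. Tissue identity could be checked only against miRNAs: Mir375 of neuroendocrine cells, such as the chromaffin cells of the medulla, had 68022 and 76044 CPM. Markers of the steroid-making cortex are messenger RNAs and were not measured.

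Mir152 and Mir148a were the most abundant members, Mir148b was lower and Mir33 was the lowest, at 20.2 ± 3.35 CPM (SD, n = 2, as for all means below). Mir152, the Copz2 intronic member, had 1750 counts or 171 CPM in replicate 1 and 1603 counts or 455 CPM in replicate 2, a mean of 313 ± 201 CPM. Mir148a, the member without a host gene, had 1762 counts (172 CPM) and 1384 counts (393 CPM), a mean of 282 ± 156 CPM. Both were higher in replicate 2, and their ranges over the replicates overlapped. Mir148b, the Copz1 intronic member, had 597 counts (58.2 CPM) and 287 counts (81.4 CPM), a mean of 69.8 ± 16.4 CPM. Mir33 had 232 counts (22.6 CPM) and 63 counts (17.9 CPM). Neither replicate of Mir33 came near a replicate of a family member, and it was the only member with the lower value in replicate 2.

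Counting error was small beside these differences for the family. The exact Poisson 95% interval of Mir152 ran from 163 to 179 CPM in replicate 1 and from 433 to 477 CPM in replicate 2. For Mir148a it ran from 164 to 180 CPM and from 372 to 414 CPM. For Mir148b the intervals were 53.6 to 63.0 CPM and 72.3 to 91.4 CPM, which do not touch. For Mir33 they were 19.8 to 25.7 CPM and 13.7 to 22.9 CPM, which do. The intervals hold counting error alone. The reads carry no molecular identifiers that would mark amplified copies, so such copies were counted as separate reads and the intervals may be too narrow.

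**Figure D2:**
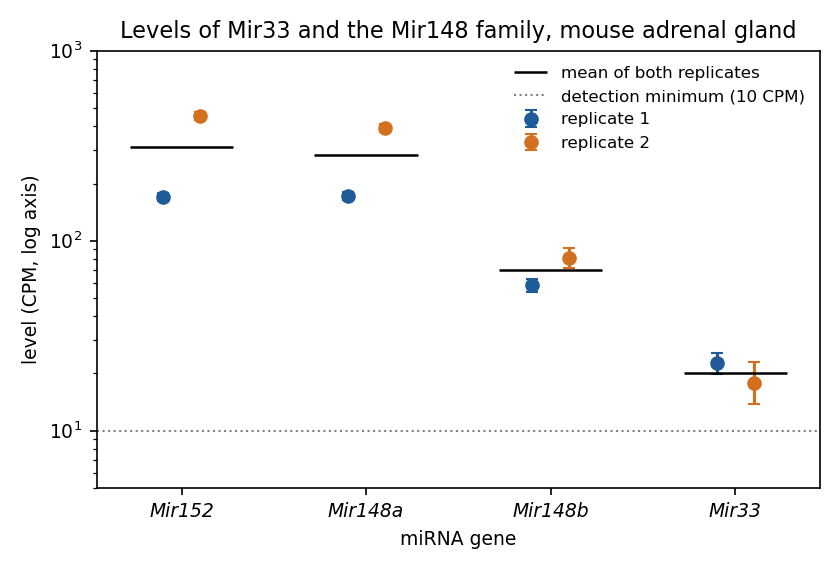
Level of each gene in CPM on a log axis, with a blue point for replicate 1, an orange point for replicate 2, bars for exact Poisson 95% intervals and a black line for the mean of both. Mir152 and Mir148a stand near 170 CPM in replicate 1 and at 455 and 393 CPM in replicate 2, Mir148b lies below them and Mir33 near 20.2 CPM, above the dotted detection minimum of 10 CPM.

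In the order of the levels, the upper pair of neighbours could not be separated. The ratio of Mir152 to Mir148a was 0.993 in replicate 1, with an exact binomial 95% interval from 0.929 to 1.06, and 1.16 in replicate 2, from 1.08 to 1.25. Mir152 was thus above Mir148a beyond counting error in replicate 2 alone, and their means differed by 30.5 CPM against SDs of 201 and 156 CPM. Mir148a stood above Mir148b in both replicates, 2.95-fold in replicate 1 and 4.82-fold in replicate 2. Mir148b stood above Mir33 2.57-fold and 4.56-fold, with intervals from 2.21 to 3.01 and from 3.46 to 6.08. The ranges of these lower neighbours over the replicates did not overlap. Because a miRNA read spans a whole mature molecule, levels were compared between genes without a term for length. The intervals of these ratios hold counting error alone. Whether different sequences enter a library equally well was not measured, so the order is one of counts.

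Within the whole profile the family members were of middling rank. By mean CPM, Mir152 stood at rank 118, Mir148a at 125, Mir148b at 189 and Mir33 at 241 of the 267 detected genes, whose median level was 228 CPM. Mir152 and Mir148a were therefore above the median and the other two below it. Mir152 held rank 147 in replicate 1 and rank 103 in replicate 2, and Mir148a ranks 146 and 108, whereas Mir33 held ranks 238 and 244.

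The 3 family members together made up 0.0400% of assigned counts in replicate 1 (4109 counts, 400 CPM) and 0.0929% in replicate 2 (3274 counts, 929 CPM). Their summed level averaged 664 ± 374 CPM. Mir148a held a like share of the family in both libraries, 42.9% of family counts in replicate 1 (Wilson 95% interval 41.4% to 44.4%) and 42.3% in replicate 2 (40.6% to 44.0%). Mir152 held 42.6% (41.1% to 44.1%) and 49.0% (47.3% to 50.7%). Mir148b held 14.5% (13.5% to 15.6%) and 8.77% (7.85% to 9.78%). Beyond counting error, the share of Mir152 was larger and that of Mir148b smaller in replicate 2. Mir33 made up 5.34% of the counts of all 4 members in replicate 1 and 1.89% in replicate 2.

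**Figure D3:**
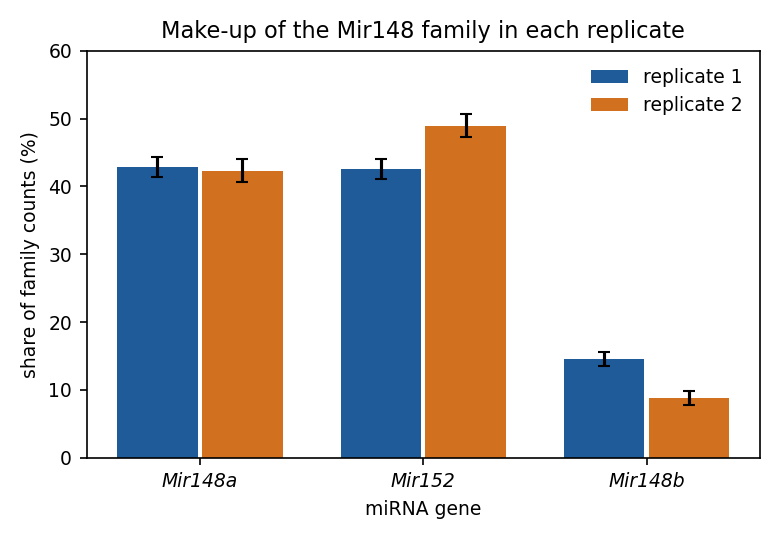
Share of the summed Mir148a, Mir148b and Mir152 counts held by each gene in percent, with blue bars for replicate 1, orange bars for replicate 2 and Wilson 95% intervals. Mir148a holds 42.9% and 42.3%, while Mir152 holds 42.6% and 49.0% and Mir148b 14.5% and 8.77%.

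How far the replicates lay apart was tested for each miRNA gene with at least 10 counts over both libraries, by an exact two-sided binomial test on TMM-scaled library sizes with Benjamini-Hochberg adjustment at 0.05. It sets 2 libraries against counting noise and says nothing of conditions. All 4 members were among the 443 genes tested, and 3 of the 4 were called higher in replicate 2, where 21.2% of all tested genes were called in that direction. No member was called higher in replicate 1, as 31.6% of tested genes were. In either direction the test called 52.8% of genes, so a call by itself is common in these libraries. The log2 ratio of replicate 2 over replicate 1 was 1.40 for Mir152 (95% interval 1.299 to 1.496, 2.63-fold, adjusted p = 2.85e-163 by the exact binomial test). It was 1.18 for Mir148a (1.07 to 1.28, 2.26-fold, adjusted p = 8.67e-107 by the same exact test). The ratio of Mir148b was smaller, 0.47 (0.26 to 0.67, 1.38-fold, exact adjusted p = 2.51e-05). Scaled to all reads of a library, unmapped ones included, Mir148b alone of the 3 changed its order, with 29.0 and 27.0 CPM in replicates 1 and 2. Mir33 was not called, with a log2 ratio of -0.35, an interval from -0.78 to 0.05 and an exact adjusted p of 0.142. On TMM-scaled library sizes, 63 counts in replicate 2 thus could not show its direction. Scaled to all reads, Mir33 had 11.3 CPM in replicate 1 and 5.93 in replicate 2, a difference that was not tested.

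The ratios of the members were then set beside those of all genes. The median log2 ratio over the 443 tested genes was -0.17, against 0.82 for the 4 members. Among the 277 genes averaging 10 CPM or more, 8 had a higher log2 ratio than Mir152, 11 than Mir148a, 44 than Mir148b and 178 than Mir33. The median of those 277 genes lay 1.32-fold apart between replicates in either direction. By that measure 17 genes lay further apart than Mir152, 25 than Mir148a, 112 than Mir148b and 155 than Mir33. Genes within 2-fold of the level of Mir152 (59 genes) had a median log2 ratio of -0.11, and those of like level to Mir148a (64 genes) had -0.14. Scaling by DESeq2 size factors in place of TMM raised every log2 ratio by 0.18, which left the calls of the 4 members as they were. The shares of all tested genes called in each direction were not recomputed on that scale and hold for TMM scaling.

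**Figure D4:**
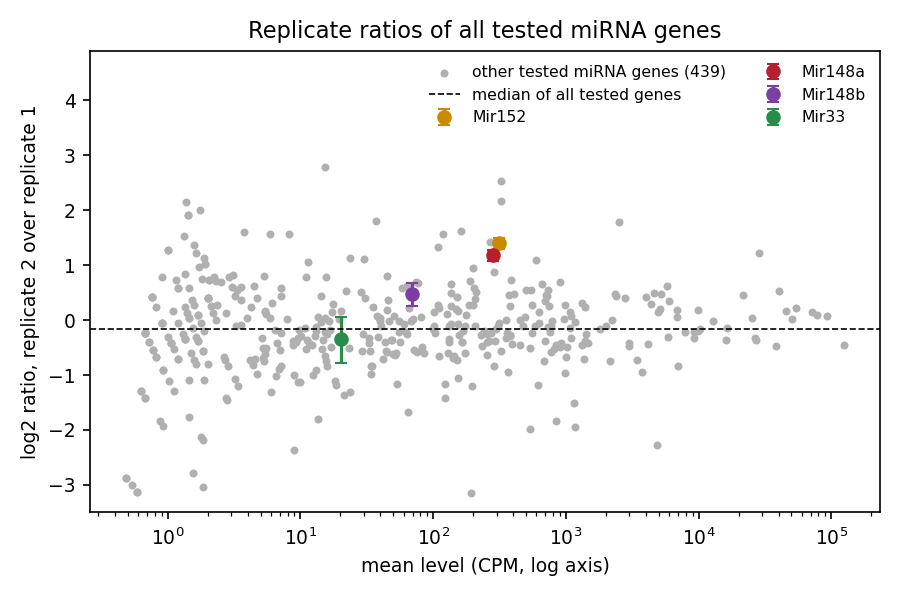
Log2 ratio of replicate 2 over replicate 1 against mean level in CPM (log axis) for the tested miRNA genes, with the 4 members in colour, bars for exact 95% intervals and a dashed line at the median of all tested genes, -0.17. Mir152 and Mir148a lie near the upper edge of the cloud at 1.40 and 1.18, Mir148b lies at 0.47 and Mir33 at -0.35.

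The members did not share 1 ratio. The log2 ratio of Mir33 was lower than that of Mir148a by a difference of -1.53, with a conditional odds ratio 95% interval from -1.97 to -1.11, and lower than that of Mir152 by a difference of -1.75 (-2.19 to -1.33). Against Mir148b the difference was -0.82 (-1.30 to -0.36). Within the family, Mir148b was lower than Mir152 by -0.93 (-1.16 to -0.70), and Mir148a exceeded Mir148b by 0.71 (0.48 to 0.94). The closest pair was Mir148a and Mir152, at -0.22 (-0.36 to -0.08). These differences do not depend on the scaling, and their intervals hold counting error only.

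Reads of other cell types in the tissue were set beside the higher family level in replicate 2. The counts of markers called stand beside 21.2% of all tested genes called higher in replicate 2 and 31.6% called higher in replicate 1. Erythroid markers went the other way, with a summed level of 8370 CPM in replicate 1 and 1814 CPM in replicate 2, and 2 of the 3 were called higher in replicate 1. Leukocyte markers summed to 2284 and 2323 CPM, with 3 of 6 called higher in replicate 2 and 2 in replicate 1. For Mir223, a myeloid miRNA gene of that list named after its values were seen, the levels were 59.2 and 178 CPM (log2 ratio 1.57). Mir150 (log2 ratio 0.94) and Mir142 (0.45) were also called higher in replicate 2. Mir146 (-0.45) and Mir155 (-0.69) were called higher in replicate 1, and Mir342 (-0.05) was not called. Smooth muscle and stromal markers summed to 26213 and 27500 CPM with all 3 called higher in replicate 2. Their log2 ratios were 0.03 for Mir143, 0.28 for Mir145a and 0.55 for Mir214. Mir143 and Mir145a belong to 1 cluster and are not independent. The endothelial marker Mir126a had 89916 and 95595 CPM, and the neuroendocrine pair Mir375 and Mir7b summed to 72765 and 79601 CPM, the former called higher and the latter lower in replicate 2. The part of these cells, and of the larger unmapped share, in the family's ratio was not tested.

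Markers of liver, exocrine pancreas, kidney and skeletal muscle were checked too. The liver marker Mir122 had 104 CPM in replicate 1 and 97.6 in replicate 2 and was not called. Of the exocrine pancreas markers, Mir216a had no count in either library, Mir216b had 1 and 0 counts and Mir217 had 16 and 1. Kidney markers summed to 73.7 and 83.1 CPM, with 1 of 3 called each way, and skeletal muscle markers to 3.51 and 5.11 CPM, with none of 2 tested members called. Of these markers, 1 of 3 for kidney and 2 of 3 for skeletal muscle share a stretch of 20 nt with another locus. Reads that fit several loci entered no gene, so those levels are uncertain. The part of these tissues in the level of Mir148a was not tested.

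Other miRNA genes reported to act on cholesterol transport put these levels in context. The 3 lists, of miRNAs reported to repress efflux transporters, uptake receptors or sterol sensors, hold 30 distinct genes, of which 23 were detected and 11 share a stretch of 20 nt with another locus. By mean CPM, 13 of the 30 stood above Mir152, 14 above Mir148a, 18 above Mir148b and 22 above Mir33. Of 28 tested, 12 were called higher in replicate 2 and 12 higher in replicate 1, where 21.2% and 31.6% of all 443 tested genes were called. Their median log2 ratio was -0.03 against -0.17 over all tested genes. The lists were chosen with earlier results of these data known.

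In the efflux list, 13 of 18 genes were detected. Of 16 tested, 8 were called higher in replicate 2 and 6 higher in replicate 1, against the same 21.2% and 31.6% of all tested genes. It was led by Mir26b, an intronic miRNA gene of Ctdsp1, at 17093 CPM in replicate 1 against 40184 in replicate 2. Its log2 ratio was 1.22, close to that of Mir148a. Mir10b of the Hoxd region had 29421 and 23835 CPM, a log2 ratio of -0.32. Mir27b had 3397 and 2565 CPM and shares a 20 nt stretch with Mir27a, and Mir145a of smooth muscle had 880 and 1080 CPM. By mean CPM, 12 of the 18 efflux-linked genes stood above Mir33 and 6 below it. Except for Mir20b, every listed gene below Mir33 has a 20 nt match at another locus. Above Mir33, the genes Mir27a, Mir27b, Mir26a-2 and Mir128-1 have one too. Counts of such genes leave out reads that fit several loci, so low places among them are uncertain.

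In the uptake list, 10 of 13 genes were detected. Of 12 tested, 7 were called higher in replicate 2 and 4 higher in replicate 1, against 21.2% and 31.6% of all tested genes. Mir125a, reported to repress the SR-BI gene Scarb1, led it with 4510 and 6996 CPM, and Mir27b followed. Mir455 had 919 and 621 CPM and Mir185 had 816 and 714 CPM, both called higher in replicate 1. In the sterol sensing list, 7 of 8 genes were detected. Of 8 tested, 1 was called higher in replicate 2 and 5 higher in replicate 1, against the same background shares of 21.2% and 31.6%. Among the 5 are Mir182, Mir183 and Mir96, which belong to 1 cluster and are not independent. The efflux and uptake lists also hold related genes, such as Mir27a and Mir27b, so their calls are not independent either. Mir34a had 1690 and 600 CPM, Mir185 as above, Mir342 had 636 and 623 CPM, and Mir24-2 had 203 and 375 CPM. Mir24-2 shares a stretch of 20 nt with Mir24-1 and its level is uncertain.

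**Figure D5:**
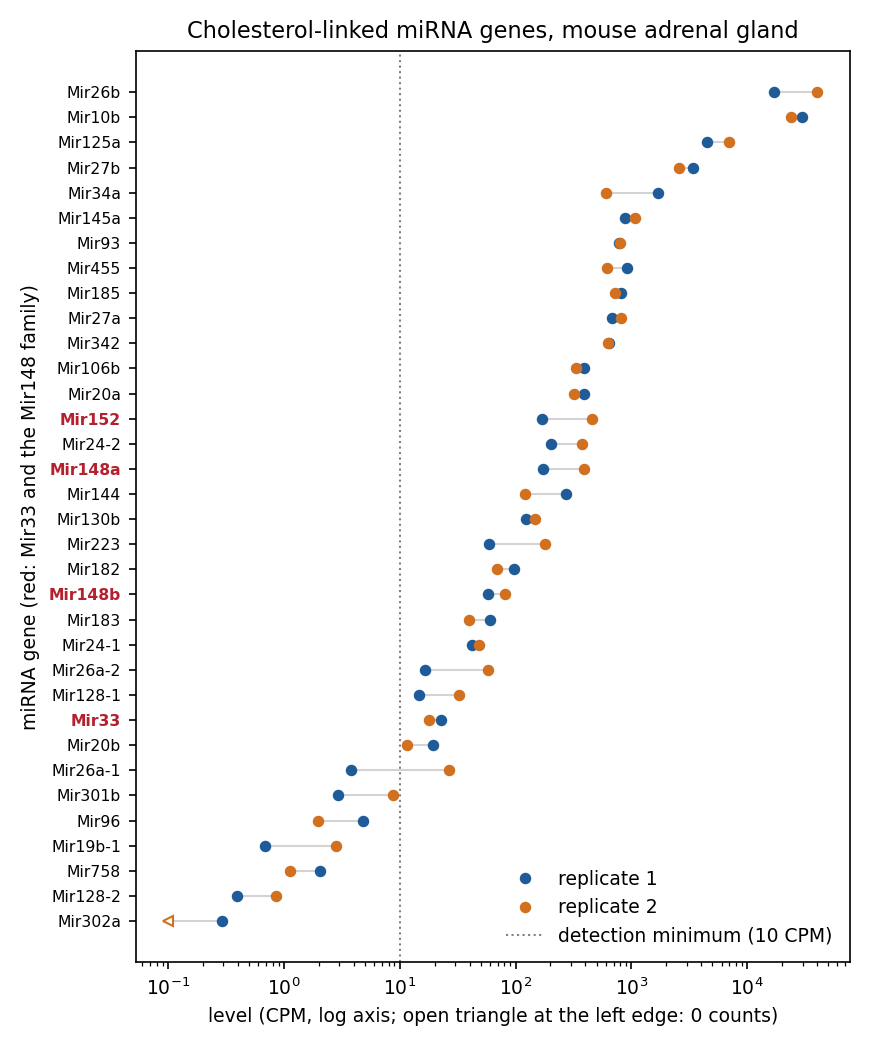
Level in CPM (log axis) of the 30 listed cholesterol-linked miRNA genes and the 4 members (red names), ordered by mean level, with a blue point for replicate 1, an orange point for replicate 2 and an open triangle for 0 counts. Mir26b leads with 17093 and 40184 CPM, Mir152 and Mir148a stand in the middle, and Mir33 lies near the dotted detection minimum of 10 CPM.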

How the data were processed

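The authors deposited raw read counts, 1 table per library, with 3 columns of whole numbers for 2202 miRNA genes and 4 summary lines. Per the file headers of the accompanying descriptions, the build is mm10 and the annotation GENCODE M21. The aligner is not given in the sources used here, nor is the counter. The second count column, on the strand of the gene, was used, and summary lines, 50.2% of reads in replicate 1 and 66.8% in replicate 2, stayed out of library sizes and tests. All 2202 identifiers matched GENCODE M21.

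TMM factors (edgeR 4.0.16, R 4.3.3) were 0.994 and 1.006, over genes with a count. Log2 ratios had 0.5 counts added. With 1 group, no count model between conditions could be fitted, and the exact binomial test was used. The test was checked on simulated counts that held counting noise alone, where it called 1.6% of unchanged genes. That check says nothing of spread between replicates beyond counting noise. Scaling, filter, count column and left-out replicates were varied, with DESeq2 1.42.0 for size factors. Python 3.11.15 with scipy 1.17.1 did the other steps. Sequences came from RefSeq (GRCm38.p6), where all 4 members matched by symbol.

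The members and lists were chosen with earlier results of these data known. Named are the 4 members, the genes next to each in mean CPM, genes sharing a member's seed, and the 4 highest genes of each cholesterol list. Marker lists cover liver, exocrine pancreas, erythroid, leukocyte, endothelial, smooth muscle and stromal, kidney, skeletal muscle and neuroendocrine miRNAs.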

Additional observations from a re-analysis of the deposited data

How the results depend on the processing

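Directions and calls of the 4 replicate differences held under all 5 alternatives run for each (DESeq2 size factors, plain library sizes, no filter on low counts, counts without regard to strand, and TMM over genes with at least 10 counts, the last chosen after seeing the data). Log2 ratios ranged from 1.40 to 1.58 for Mir152, from 1.18 to 1.36 for Mir148a, from 0.47 to 0.65 for Mir148b and from -0.35 to -0.17 for Mir33, whose exact binomial adjusted p ranged from 0.178 to 0.529. With all reads, unmapped ones included, as the denominator, mean levels fell to 8.60 CPM for Mir33, 108 for Mir148a, 28.0 for Mir148b, 118 for Mir152 and 254 for the summed family, which follows from the larger denominator. On that scale Mir148b had 29.0 in replicate 1 and 27.0 in replicate 2, the opposite order to its CPM, while Mir148a had 85.5 and 130 and Mir152 had 85.0 and 151. Mir33 had 11.3 and 5.93 on the same scale, further apart than in its CPM. Of 44 values recomputed from both replicates, 40 stayed on their side of the test or within 1 SD, but that SD is wide with 2 replicates, and the 118 CPM of Mir152 passes only because of it. Leaving out a replicate tests nothing with 2 replicates. It gives the other's value, so the summed family level was 929 CPM without replicate 1 and 400 CPM without replicate 2, and Mir33 per family count was 0.0192 and 0.0565. The ratio of Mir33 rests on 63 counts in replicate 2. No paired analysis was possible because the series holds 1 group.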

Other observations

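The miRNA genes standing next to each member in mean level came from other families. Around Mir152 stood Mir1247, of the imprinted Dlk1-Dio3 region, with 94.6 CPM in replicate 1 and 550 CPM in replicate 2, and Mir667 with 316 and 308 CPM. Mir1247 had a larger log2 ratio than Mir152, 2.52, while that of Mir667 was -0.05. Around Mir148a stood Mir770 with 370 and 209 CPM, which went the other way, and Mir467e with 292 and 252 CPM, which shares a stretch of 20 nt with another locus. Around Mir148b stood Mir496a with 69.6 and 71.2 CPM and Mir350 with 68.6 CPM in each replicate. Mir33 stood between Mir547 of the X chromosome, with 19.0 and 21.6 CPM, and an entry named n-TSaga9, with 19.5 and 19.9 CPM, which carries the name of a transfer RNA gene and shares a stretch of 20 nt. With 1 group of 2 libraries, likeness was measured in level alone.

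On the strand opposite the members, 3 reads were counted at Mir152 in replicate 1 and none in replicate 2. The other members had no opposite-strand read in either library.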
